A study of Homo sapiens with 12 samples.

Results

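The REXO4 peaks described here are the 416 of 1460 (28.5%) that did not share a single base with any of the 54623 RNaseH1 peaks made alongside them. Members were chosen on position alone: a REXO4 peak with at least 1 bp in common with an RNaseH1 peak was left out, and the 1044 peaks left out are called shared peaks below. Lack of overlap and distance to RNaseH1 peaks are therefore the rule of choice and not a finding. The 416 peaks were found within genes of many kinds, at gene starts and in long gene-free stretches that stand in for centromeric DNA. Others lay in ribosomal DNA and at 1 site of the mitochondrial genome.

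The peaks came from chromatin immunoprecipitation sequencing (ChIP-seq) of U2OS, a human osteosarcoma cell line. A tet-on stable line expressed Flag-tagged REXO4-D386A and a second line expressed RNaseH1-D210N, both nuclease-dead mutants. Doxycycline, which switches the transgene on, was added at 1 µg/ml for about 60 h or left out. There were 12 libraries in 8 groups, with 2 anti-Flag libraries and 1 input library per line and condition. All groups carried the transgene, and a group without it was not analysed here. The values analysed were 2 peak lists, 1 per protein, with no value per library. The sources used here do not say which libraries, doxycycline condition and control entered each list, how deep the libraries were, or whether a line was a single clone. No difference below therefore has a replicate error or a test over samples, and every interval covers counting error within the lists only. Expression of U2OS marker genes was not measured.

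An R-loop forms when an RNA strand pairs with its DNA template and leaves the other DNA strand single. R-loops form readily over G-rich transcribed DNA at CpG island promoters, in ribosomal DNA and in repeats. RNase H1 cuts the RNA of such hybrids inside the strand and also acts in mitochondria, and REXO4 belongs to a family of RNA exonucleases, which remove RNA from an end. The study asked whether the mutant proteins sit on R-loops.

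Promoters were the only sites whose sequence could be read, and the sequence of the other peaks was not analysed here. A promoter window here is the 300 bases from 250 before to 50 after a gene start in RefSeq (GRCh38.p14). Of the 416 peaks, 63 (15.1%) touched 74 such windows, against 406 of 1044 shared peaks (38.9%), which touched 495. The peaks without overlap touched windows at gene boundaries in 52 cases and at sites over 1 kb inside an annotated gene in 11 cases. In 16 windows the 250 bases before the start lay wholly inside the peak, and 9 of these belonged to protein-coding genes. The 6 of these with the highest fold enrichment are printed 5′ to 3′ on the strand of the gene. They show DNA that lay under those 6 peaks and not under the set as a whole. Runs of GGGG or CCCC are in capitals.
SLC8A1: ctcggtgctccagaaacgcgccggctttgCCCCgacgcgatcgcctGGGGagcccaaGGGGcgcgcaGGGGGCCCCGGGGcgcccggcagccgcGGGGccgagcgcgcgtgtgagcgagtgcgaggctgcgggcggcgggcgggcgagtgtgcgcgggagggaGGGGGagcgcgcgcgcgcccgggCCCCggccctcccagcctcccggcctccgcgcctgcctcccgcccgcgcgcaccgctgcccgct
DNAH10: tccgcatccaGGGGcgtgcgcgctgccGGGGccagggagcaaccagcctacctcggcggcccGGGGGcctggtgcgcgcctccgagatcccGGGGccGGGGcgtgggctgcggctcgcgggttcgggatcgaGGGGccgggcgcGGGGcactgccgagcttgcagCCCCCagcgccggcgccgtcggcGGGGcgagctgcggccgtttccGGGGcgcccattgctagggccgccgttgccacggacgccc
PCSK2: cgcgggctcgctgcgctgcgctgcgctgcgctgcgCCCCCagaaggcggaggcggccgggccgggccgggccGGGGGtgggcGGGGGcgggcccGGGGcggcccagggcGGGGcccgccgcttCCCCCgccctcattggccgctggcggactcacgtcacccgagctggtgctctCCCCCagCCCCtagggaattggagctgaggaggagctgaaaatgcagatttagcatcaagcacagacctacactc
RNF180: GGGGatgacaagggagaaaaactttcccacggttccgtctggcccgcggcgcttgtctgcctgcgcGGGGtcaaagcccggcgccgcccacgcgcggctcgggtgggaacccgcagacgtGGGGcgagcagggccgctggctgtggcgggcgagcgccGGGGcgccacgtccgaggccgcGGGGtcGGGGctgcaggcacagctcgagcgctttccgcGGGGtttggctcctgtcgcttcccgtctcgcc
EYA4: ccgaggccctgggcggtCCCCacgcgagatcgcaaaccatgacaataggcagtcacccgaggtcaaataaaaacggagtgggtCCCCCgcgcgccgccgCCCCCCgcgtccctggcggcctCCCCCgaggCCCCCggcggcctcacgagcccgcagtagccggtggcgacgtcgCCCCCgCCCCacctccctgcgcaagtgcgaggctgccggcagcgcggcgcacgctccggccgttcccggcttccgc
FGF14: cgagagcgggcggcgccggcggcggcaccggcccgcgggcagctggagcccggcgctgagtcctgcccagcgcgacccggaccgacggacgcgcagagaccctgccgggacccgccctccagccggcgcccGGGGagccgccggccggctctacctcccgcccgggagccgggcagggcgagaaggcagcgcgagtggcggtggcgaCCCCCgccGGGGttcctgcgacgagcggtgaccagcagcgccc

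SLC8A1 makes a sodium-calcium exchanger of the plasma membrane. Its 250 bases lie at chr2:40452091-40452340 on the minus strand, held 83.2% G+C and 44 CpG, and lay under a peak of 5.88-fold. DNAH10 makes a heavy chain of the dynein of cilia, and its stretch at chr12:123762051-123762300 (plus strand) held 80% G+C and 10 runs of GGGG or CCCC. PCSK2 makes a protease that matures hormone precursors (chr20:17226790-17227039, plus strand, 74.4% G+C), and RNF180 a ubiquitin ligase (chr5:64165593-64165842, plus strand, 74% G+C). EYA4 makes a transcriptional coactivator and phosphatase of the eyes absent family (chr6:133241107-133241356, plus strand, 75.2% G+C). FGF14 makes a fibroblast growth factor homologue that acts inside neurons (chr13:101916946-101917195, minus strand, 81.6% G+C) and had 3 runs, the lowest number of the 6. All 6 sequences were G+C-rich, and 5 of them held 7 or more runs of GGGG or CCCC.

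The same held for the windows as a whole. A window is called under a peak here if the peak touched any of its bases, so much of it could lie outside the peak. Some windows also overlap each other. Median G+C was 75.3% in the 74 windows under these peaks (quartiles 71.7% and 79.4%), 78% in the 495 windows under shared peaks and 58.7% in all 34943 windows of the table. The median number of CpG per window was 38.5, 43 and 14 in the same order. GGGG on either strand occurred in all 74 windows (100%), in all 495 windows under shared peaks (100%) and in 89.6% of all windows. GGGCGG, the core of the Sp1 box, occurred on either strand in 90.5%, 94.3% and 44.9%. TATAAA, which marks TATA boxes, occurred on either strand in 2.70%, 3.23% and 11.6%. GGGG and GGGCGG can share bases, and a match is a string of letters and not a shown binding site. Windows under both kinds of REXO4 peak were thus far richer in G+C than the table as a whole, and those under peaks without overlap were slightly less rich than those under shared peaks.

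**Figure D1:**
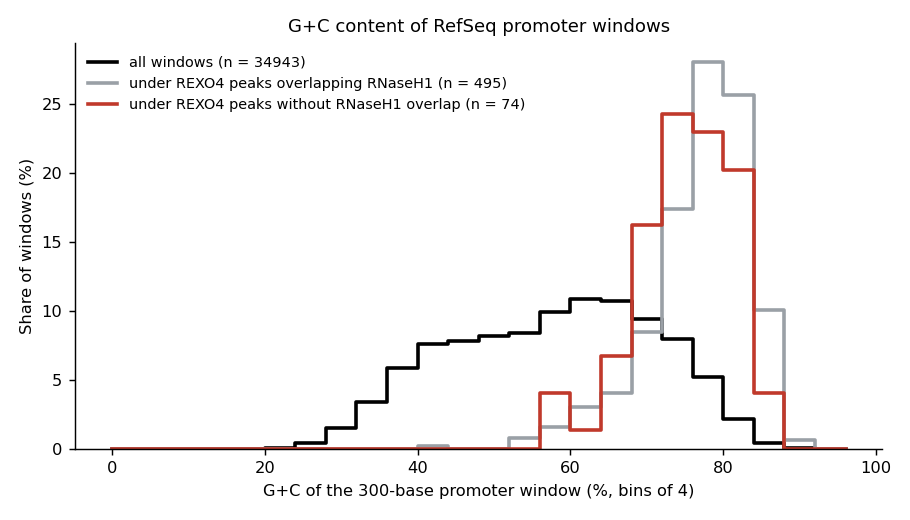
Share of RefSeq promoter windows (vertical axis, %) by G+C content (horizontal axis, %, bins of 4) for all windows, windows under shared REXO4 peaks and the 74 windows under REXO4 peaks without RNaseH1 overlap. The last curve has its median at 75.3%, against 58.7% for all windows.

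By position, fewer of the peaks without overlap lay at genes and more lay far from them than among the shared ones. RNaseH1 peaks lay at a boundary of 64.9% of all protein-coding genes, so the rule of choice bears on this contrast. It is a description only. A peak was placed by its summit, and a gene boundary means a site at most 1 kb from an end of a gene, protein-coding or lncRNA. Of the 390 on assembled chromosomes, 114 were at a gene boundary (29.2%, exact binomial 95% interval 24.8% to 34.0%), against 643 of 990 shared peaks (64.9%) and 54.9% of all REXO4 peaks. Inside a gene, boundary sites included, lay 245 (62.8%, interval 57.8% to 67.6%), against 757 shared peaks (76.5%) and 72.6% of all. In stretches of over 3 Mb with no annotated gene lay 40 (10.3%, interval 7.43% to 13.7%), against 1 shared peak and 2.97% of all. The intervals treat peaks as independent, which neighbours are not. The median distance from summit to the nearest gene boundary was 8014.5 bp, against 373 bp for shared peaks. Over 10 kb from any boundary were 180 peaks (46.2%), against 167 shared ones (16.9%).

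When each peak was put in a single class, 144 of the 416 were inside a gene and away from its ends, 114 at a gene boundary and 81 between genes. A further 40 were in gene-free stretches, 25 on scaffolds or alternate contigs, 11 on chromosome 21 below 9 Mb, where ribosomal DNA lies, and 1 on mitochondrial DNA. The share of REXO4 peaks that lacked overlap was 15.1% at gene boundaries, 40% inside genes, 47.1% between genes and 97.6% in gene-free stretches (40 of 41, exact interval 87.1% to 99.9%). The rule of choice bears on these shares too.

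**Figure D2:**
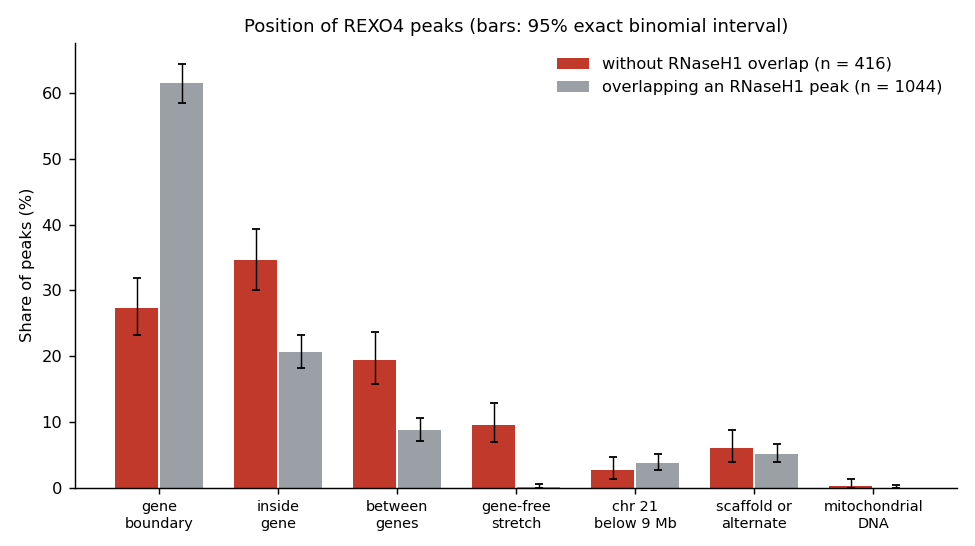
Share of peaks (vertical axis, %) in each position class for REXO4 peaks without RNaseH1 overlap (n = 416) and shared peaks (n = 1044), with 95% exact binomial intervals. Gene boundaries held 27.4% of the first and 61.5% of the second, and gene-free stretches 9.62% and 0.0958%.

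Enrichment and depth differed between the 2 sets as well. Fold enrichment is the authors' deposited value per peak, read here as fragments at the summit over expected pileup, each with 1 added. The expected pileup is the number of background fragments set against the summit. It need not be a count at that site, and for 23 of the 416 peaks it was the lowest value in the list. The median fold was 3.35 (quartiles 2.72 and 4.13, range 1.21 to 12.8), against 2.05 for shared peaks (quartiles 1.80 and 2.52). The median number of fragments was 25 against 104, and the median expected pileup 6.37 against 51.5. Peaks without overlap were thus higher in fold and rested on fewer fragments. They were also narrow: 68 (16.3%) had the shortest width in the list, 285 bp, against 40 shared peaks (3.83%). A q of 1e-05 or less was reached by 149 (35.8%) and by 630 shared peaks (60.3%), and a q of 0.05 or less by 400 (96.2%) and 1007 (96.5%).

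The share lacking overlap and the fold both moved with the expected pileup. Where the expected pileup was under 5, 164 of 190 REXO4 peaks lacked overlap (86.3%). Between 5 and 10 it was 124 of 170 (72.9%), between 10 and 20 it was 81 of 189 (42.9%), and between 20 and 50 it was 16 of 343 (4.66%). From 100 on, 23 of 204 lacked overlap (11.3%). These 23 were 10 sites of the chromosome 21 arm, 8 in gene-free stretches, 4 on scaffolds and the mitochondrial site. Within a range of expected pileup the median folds of the 2 sets lay close together: 4.29 without overlap and 4.12 shared under 5, 3.26 and 3.11 from 5 to 10, and 2.63 and 2.68 from 10 to 20. The part of the expected pileup in the differences of position and fold between the sets was not tested.

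**Figure D3:**
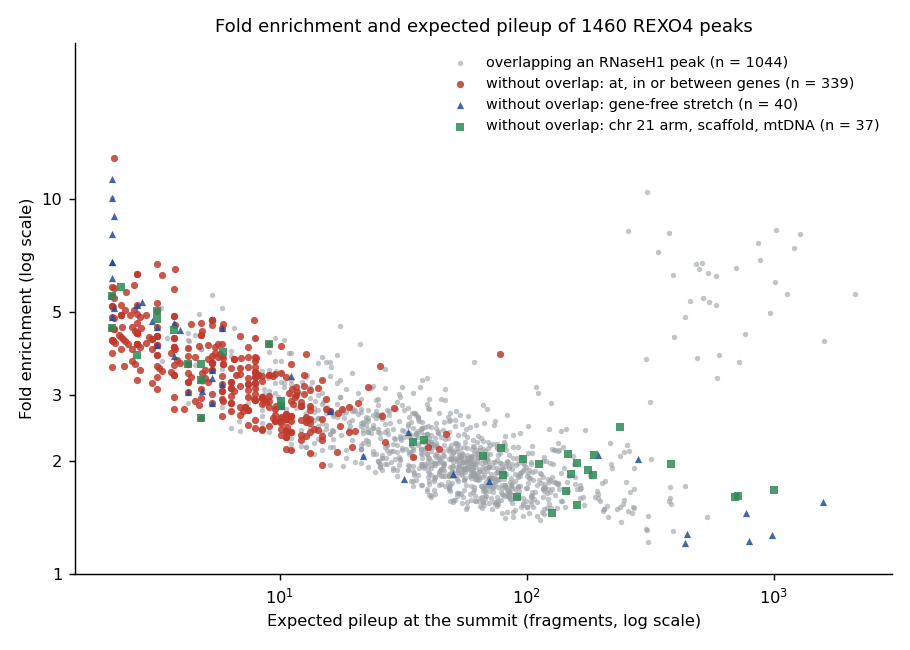
Fold enrichment (vertical, log scale) against expected pileup in fragments (horizontal, log scale) for all 1460 REXO4 peaks, with those lacking RNaseH1 overlap marked by position. Most lie at the left, with a median expected pileup of 6.37 against 51.5 for shared peaks, and a few from repeats lie at the far right.

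At gene boundaries, the 114 peaks had a median fold of 3.20 (range 2.06 to 6.24) and a median of 28 fragments. The nearest boundary was that of a protein-coding gene for 88 and of a lncRNA gene for 26. Where RefSeq gave the strand, 72 of 82 peaks (87.8%) were at the start of the gene and 10 at its end, against 467 of 483 shared peaks (96.7%) at the start. In all, 104 protein-coding genes had such a peak at a boundary.

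ANOS1, which makes the extracellular matrix protein anosmin, had the highest fold near a protein-coding boundary: 17 fragments where 2.65 were expected, a fold of 4.93 (exact Poisson 95% interval 2.98 to 7.72). Such intervals treat the expected pileup as known. UBE2QL1, of the ubiquitin-conjugating enzyme family, followed with 29 fragments over 5.31 (4.76-fold, interval 3.24 to 6.76). DLGAP3, a scaffold protein of the postsynaptic density, had 41 over 7.87 (4.74-fold, interval 3.43 to 6.39). The intervals of these 3 overlap, so their order is not resolved. ADD2, the beta subunit of the membrane skeleton protein adducin, had 24 fragments over 4.39 (4.64-fold), and TUNAR, known first as a noncoding RNA of neural cells and listed as protein-coding in the gene table, 31 over 5.90 (4.64-fold). SOX1, a transcription factor of neural progenitors, had 19 over 3.72 (4.24-fold), DNAH10 had 37 over 7.96 (4.24-fold) and DCHS1, a large cadherin of planar cell polarity, 22 over 4.69 (4.04-fold). All 8 lay 58 to 838 bp from a boundary, and the distances of the 8 to the nearest RNaseH1 peak ran from 4666 bp (SOX1) to 610562 bp (ANOS1).

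PTPRN2 stood apart by depth. This gene makes a phosphatase-like protein of secretory vesicles, and its peak at chr7:158587544-158587970, 86 bp from the gene boundary, held 304 fragments where 78.0 were expected (3.86-fold, interval 3.44 to 4.32, −log10 q of 79.0). No other peak of the boundary class had as many fragments, and the nearest RNaseH1 peak was 62995 bp away. RCC2, a regulator of mitosis, had 94 fragments over 25.5 (3.59-fold, interval 2.91 to 4.38), with an RNaseH1 peak 170 bp away.

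The following boundary peaks, like those of PTPRN2 and RCC2, were picked after their values were seen, and they show no more than that these sites were in the list. Of a fixed list of neurotransmitter receptors and ion channels, 1 of 39 genes (2.56%) had a peak, against 1.24% of all protein-coding genes and 4 of 39 for shared peaks. That gene was KCNB2, so none of the receptors and channels named in this paragraph was on the list. The share of all transcription factor genes with a peak was not counted. Among genes of transcription factors, PTF1A of pancreas and cerebellum had 3.74-fold (22 fragments), HMX1 3.65-fold (22), IRX3 3.62-fold (43), MAF 3.54-fold (27), HOXD11 3.40-fold (25), FOXQ1 3.39-fold (33), TBX21 2.93-fold (47) and POU3F1 2.76-fold (51). ID4, an inhibitor of such factors, had 3.03-fold (35). Among genes of neuronal signalling, the NMDA receptor subunits GRIN2C and GRIN3B had 4.04-fold (44) and 2.60-fold (28). The potassium channels KCNK4, KCNJ4 and KCNK3 had 3.43-fold (37), 2.75-fold (28) and 2.62-fold (28). The glutamate transporter SLC17A7 had 3.41-fold (35) and the kainate receptor GRIK3 2.73-fold (22).

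Away from the boundaries and inside a gene, the 144 peaks had a median fold of 3.51 (range 1.95 to 6.48) and a median of 20 fragments, fewer than at boundaries. The longest gene around them had a median length of 102 kb, against 71.2 kb for the 216 shared peaks of this class. Genes over 500 kb held 18 (12.5%), against 8 (3.70%). Whether these sites are exonic or intronic was not analysed here.

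XRCC1, the scaffold protein of DNA single-strand break repair, held the highest of them. Its peak at chr19:43548076-43548370, 4920 bp from the end of the gene, had 30 fragments where 3.78 were expected (6.48-fold, interval 4.44 to 9.17). SNRPN, a spliceosomal protein gene of the imprinted Prader-Willi region, shared its site with the noncoding host gene SNHG14 and had 22 fragments over 2.65 (6.29-fold, interval 4.05 to 9.39). CTNNA2, the alpha-catenin of neurons, held 2 peaks far apart, with 26 fragments over 3.33 (6.24-fold) and 15 over 2.098 (5.16-fold). The first of these also lies 99 bp from the lncRNA gene LOC107985904 and so counts among the boundary peaks. The intervals of all these folds overlap.

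Further down, SLC8A1 had 20 fragments over 2.57 (5.88-fold, interval 3.70 to 8.93), at the inner start whose sequence is printed above. NPC2, a lysosomal carrier of cholesterol, had 17 over 2.098 (5.81-fold), and VPS13B, a lipid transfer protein of the Golgi, 17 over 2.12 (5.76-fold). CYP20A1, a cytochrome P450, had 18 over 2.37 (5.63-fold) and MTMR7, a phosphoinositide phosphatase, 16 over 2.098 (5.49-fold). HPSE2, a heparanase relative, had 15 over 2.098 (5.16-fold) and the lncRNA gene LOC124907918 16 over 2.27 (5.20-fold), the latter 577 bp from a boundary and so also among the boundary peaks. SPDYE15, with 21 over 3.18 (5.26-fold), belongs to a family of near-identical copies, between which short reads may be split. An expected pileup of 2.098 is the lowest in the list and was shared by 23 of the 416 peaks and 1 shared peak, so at these sites the fold follows the fragments alone.

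Counted over genes, 246 of 19862 protein-coding genes (1.24%) had such a summit in the body or within 1 kb, against 857 (4.31%) for shared peaks, and 19 had both. Their median length was 62.1 kb, against 57.8 kb for genes with shared peaks and 24.5 kb for all protein-coding genes. Of the 104 genes with a peak at a boundary, 38 (36.5%) also had an RNaseH1 peak there. The share was 64.9% over all protein-coding genes and 98.7% over the 624 genes with a shared peak at a boundary. The rule of choice bears on this count, so it is a description only.

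Gene lists gave few hits. The lists were chosen with earlier results of these data known, so their shares are a description only. Of 30 very long and fragile site genes, 4 (13.3%) held a peak, and the list has a median length of 1420 kb, so that more DNA was open to a hit. They were CTNNA2, its relative CTNNA3 (3.82-fold, 15 fragments), NBEA, a protein of vesicle traffic (4.52-fold, 13 fragments) and AUTS2, a regulator of transcription in neurons (2.42-fold, 22 fragments). Of 21 genes of single-strand break and base excision repair, 2 (9.52%) did: XRCC1, and the uracil-DNA glycosylase SMUG1 with 33 fragments over 12.2 (2.57-fold, interval 1.80 to 3.58). Catenins and cell adhesion had 2 of 30, which are CTNNA2 and CTNNA3 again. Imprinted genes had 1 of 29 (SNRPN), and axon guidance genes 1 of 35 (NTNG1, 3.36-fold). Osteoblast and matrix genes had 1 of 30 (the gelatinase MMP2, 2.32-fold). The 1 receptor or channel gene was KCNB2, a potassium channel (2.35-fold). No gene was hit among 61 of segmental duplication families, 50 chromosome 19 KRAB zinc finger genes, 54 of cytosolic ribosomal proteins, 30 of R-loop processing, 30 of DNA replication and 17 of glycolysis. The share of 1.24% over all genes comes to less than 1 gene in each of these lists. In the very long and fragile site list, shared peaks hit 2 of 30 genes and RNaseH1 peaks hit 29. In the repair list, shared peaks hit 0 of 21 genes and RNaseH1 peaks hit all 21. Within 1 kb of tRNA, rRNA, snRNA, snoRNA and miRNA genes there were 0 peaks of this set, while shared peaks were near 10, 20, 0, 1 and 19 in this order.

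In gene-free stretches of over 3 Mb, 40 of 41 REXO4 peaks lacked RNaseH1 overlap. Whether a peak lay inside a centromere or beside it was not analysed here. Human centromeres consist of long arrays of alpha satellite repeats, which hg38 holds as modelled sequence, and gene-free stretches of over 3 Mb stand in here for such DNA and the heterochromatin beside it. There were 19 such stretches, 190 Mb in all, and 10 of them held the 40 peaks. Those of chromosomes 13, 14, 15, 21 and 22 ran from the first base to the first gene, and that of chromosome Y spanned 30.2 Mb. How much of this length was open to peak calling was not tested. Only 15 of 53053 RNaseH1 peaks on assembled chromosomes (0.0283%) lay in the 19 stretches. With so few RNaseH1 peaks there, the 40 of 41 is bound up with the rule of choice and is a description only. With stretches of over 2 Mb, a length tried after the values were seen, 48 peaks, 1 shared peak and 37 RNaseH1 peaks were counted. Over 1 Mb gave 48, 1 and 49, and over 5 Mb gave 22, 0 and 6.

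Chromosome 17 had the highest folds of these. Its stretch held 6 peaks, of 11.3, 10.0, 8.97, 8.07, 6.78 and 6.13-fold, with 34, 30, 27, 24, 20 and 18 fragments where 2.098 to 2.12 were expected. For 5 of the 6 the expected pileup was the lowest in the list, so their folds follow the fragments alone. The top peak lies at chr17:25965427-25965721 (interval 7.92 to 15.7), 273713 bp from an RNaseH1 peak. The 1 shared peak in a gene-free stretch was also here, with 30 fragments and 10.0-fold. Chromosome 18 held 4 peaks of 4.54 to 5.20-fold with 14 to 18 fragments over an expected pileup of 2.098 to 3.18. Chromosome 19 held 7 of 2.85 to 4.67-fold with 15 to 30 fragments over 3.72 to 5.84. Within chromosomes 18 and 19 the intervals of all peaks overlap. Chromosomes 5, 9, 10 and 15 held 2 each and chromosomes 7 and 16 held 1 each.

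Chromosome 1 held 13, which fell into unlike kinds. In 5 of them the expected pileup was under 20, with folds from 2.72 to 6.78. In the other 8 it was over 100, and folds ran from 1.21 to 2.07. The deepest peak of the whole set was one of the latter, chr1:125179684-125180413, with 2452 fragments where 1575 were expected (1.56-fold, interval 1.496 to 1.62). On the far side of the centromere, 3 neighbouring peaks had 1.22 to 1.28-fold over an expected pileup of 444 to 981. The number of repeat copies in U2OS against hg38 was not tested.

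Just outside the limit of 3 Mb lay 8 more peaks, in gene-free stretches of 2 to 3 Mb on chromosomes 6, 14, 21 and 22. One of them, at chr14:17160276-17160601, was the highest of all 1460 REXO4 peaks by fold: 39 fragments where 2.12 were expected, or 12.8-fold (interval 9.20 to 17.4). The nearest RNaseH1 peak was 1164355 bp away. The peak at chr21:11902579-11902892 had 27 fragments over 3.18 (6.69-fold) and that at chr6:59145547-59145912 had 26 over 3.72 (5.73-fold).

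**Figure D4:**
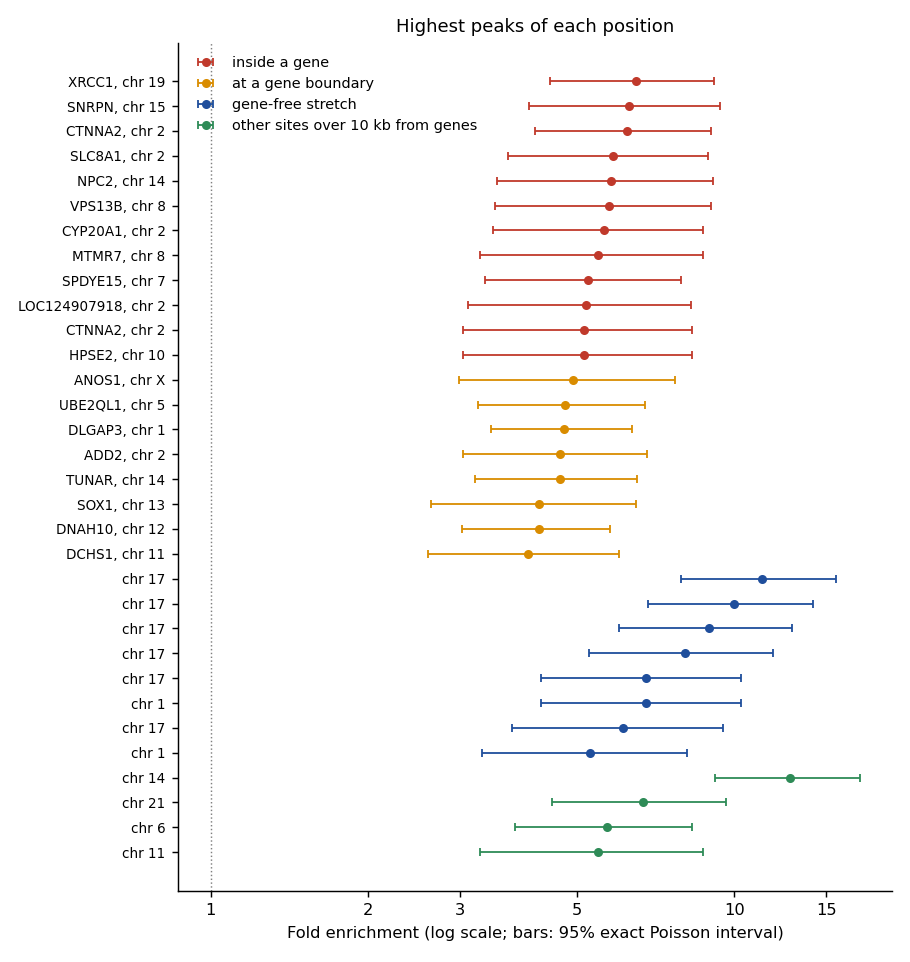
Fold enrichment (horizontal, log scale) with exact Poisson 95% intervals for the highest REXO4 peaks without RNaseH1 overlap inside genes (12), at protein-coding boundaries (8), in gene-free stretches (8) and elsewhere over 10 kb from a gene boundary (4). The chromosome 14 and 17 sites reach 12.8 and 11.3, while the genes run from 4.04 to 6.48 with overlapping intervals.

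Between genes, the 81 peaks had a median fold of 3.39 and a median of 22 fragments, close to those inside genes. Apart from the sites in gene-free stretches of 2 to 3 Mb just described, a high one was chr11:95445966-95446250. It lay 19913 bp from LOC105369439, with 16 fragments over 2.098 (5.49-fold, interval 3.27 to 8.71).

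In ribosomal DNA, peaks without overlap lay in the spacers beyond the 45S genes. The short arm of chromosome 21 carries 45S genes, which are copies of the unit that makes the large ribosomal RNAs. Of the 11 peaks below 9 Mb, 10 lay 1.03 to 17.5 kb beyond the higher-coordinate end of RNA45SN1, RNA45SN2 or RNA45SN3. They had 239 to 754 fragments over an expected pileup of 143.4 to 385, and folds of 1.53 to 2.46. The strongest, chr21:8234196-8234846, lay 14.9 kb beyond RNA45SN2 with 588 fragments over 238 (2.46-fold, interval 2.27 to 2.67). In 9 of the 10 the spacing was over 9 kb, and the peak at 1.03 kb beyond RNA45SN1 had the most fragments (754 over 385, 1.96-fold). RNaseH1 peaks were close by, at 189 to 859 bp from each of the 10, and the arm held 40 shared REXO4 peaks as well. The spacers were not particular to this set. A shared peak at chr21:8455087-8455371 (1.42-fold) lay between the peaks 1.03 and 10.2 kb beyond RNA45SN1. The remaining peak, chr21:6897254-6897538, had 18 fragments over 4.78 (3.29-fold, interval 2.02 to 5.10). The scaffold GL000220, which also carries ribosomal DNA, held 4 peaks of 1.83 to 2.16-fold. The repeat copies are near-identical, so reads may have been placed on any of them, and these peaks are not independent sites.

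Off the assembled chromosomes lay 26 peaks: 14 on alternate contigs, 9 on unplaced and 2 on unlocalized scaffolds, and the mitochondrial one. Unplaced scaffold KI270438 held 3, of which 2 side by side had 1158 and 1119 fragments over an expected pileup of 718 and 699 (1.61 and 1.600-fold).

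The mitochondrial peak spans chrM:16100-16394. It begins 77 bp beyond the gene of the proline tRNA and overlaps no gene, in the control region where replication of the heavy strand starts and the displacement loop forms. It had 1671 fragments where 999 were expected, a fold of 1.67 (interval 1.59 to 1.75) and a −log10 q of 78.8. It was the only REXO4 peak on the mitochondrial genome, and the RNaseH1 list held 0. Its fold was lower than that of 3 in 4 of the 416 peaks, whose lower quartile was 2.72.

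By chromosome, chromosome 1 held the most with 48 of its 145 REXO4 peaks (33.1%), then chromosome 2 with 36 of 94 (38.3%), chromosome 11 with 29 of 80 and chromosome 17 with 28 of 107. Per 100 Mb, chromosomes 19 and 17 had the most (41.0 and 33.6) and chromosome X the fewest (2.56) of those with a REXO4 peak. Chromosome Y held no REXO4 peak. Chromosomes 19 and 17 held 84 and 107 REXO4 peaks in all, and 28.6% and 26.2% of these lacked overlap, near the share over all chromosomes. Of the peaks without overlap on chromosomes 19 and 17, 7 and 6 lay in gene-free stretches. The share lacking overlap ran from 13.1% on chromosome 9 (8 of 61, exact interval 5.84% to 24.2%) to 40% on chromosome X (4 of 10, interval 12.2% to 73.8%). Over all assembled chromosomes the share was 28.3% (390 of 1380). The intervals of 21 of the 23 chromosomes with REXO4 peaks included it, that of chromosome 9 lay below it, and that of chromosome 2 (28.46% to 48.9%) lay just above it. No correction was made for looking at 23 intervals, and neighbouring peaks are not independent. The median expected pileup of REXO4 peaks was 58.9 on chromosome 9 and 15.9 to 16.98 on chromosomes 2, 6 and 11, whose shares were 36.3% to 38.3%. Its part in these shares was not tested.

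**Figure D5:**
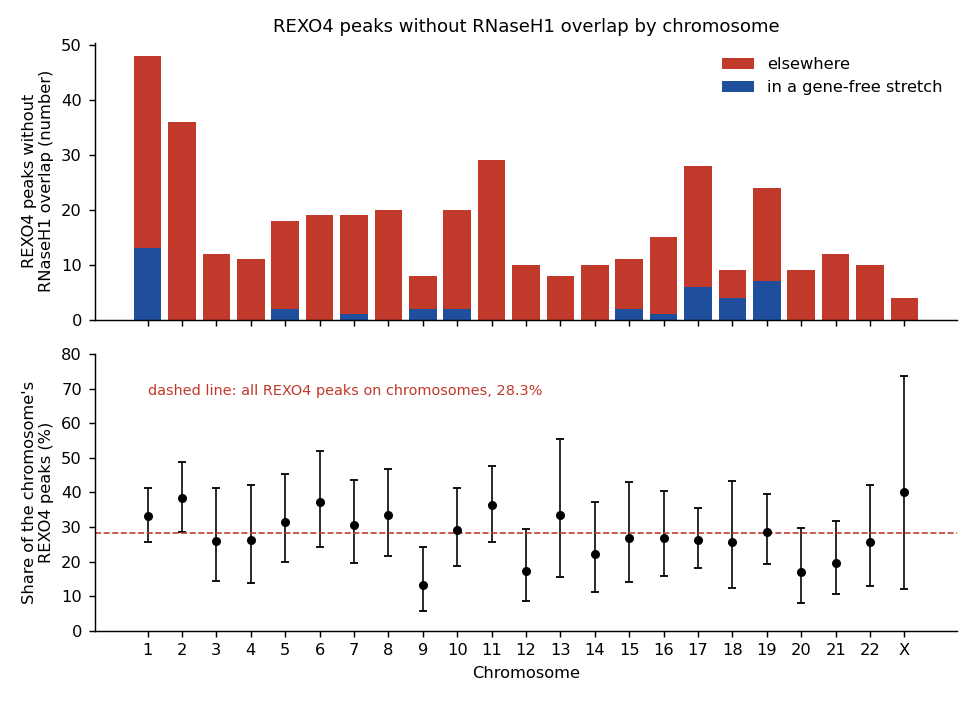
Number of REXO4 peaks without RNaseH1 overlap per chromosome (top, with those in gene-free stretches in blue) and their share of the chromosome's REXO4 peaks (bottom, %, with 95% exact binomial intervals). The dashed line is the share over all assembled chromosomes, 28.3%, which the intervals of chromosomes 2 and 9 leave out.

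Most of these peaks stood alone. Joining those within 10 kb left 396 loci, and 12 clusters held 32 peaks. Outside repeats, the largest lay by KCNQ1-AS1 and KCNQ1DN, in the imprinted KCNQ1 region, with 3 peaks of 3.34 to 3.65-fold and 17 to 22 fragments. The start of HS3ST4, a sulfotransferase of heparan sulfate, had 2 peaks (3.65 and 3.26-fold), and DACT3, an inhibitor of Wnt signalling, held 2 within the gene (2.32 and 3.38-fold). No gene held 3 summits. CTNNA2, DACT3, GALNT9, which starts O-glycan chains, and ZYG11A held 2 each. Of the 416, 8 (1.92%) were within 1 kb of a shared REXO4 peak and 21 (5.05%) within 10 kb.

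The threshold of choice was the overlap with RNaseH1 peaks, and the gap to the nearest of them had a median of 13258 bp and a range from 3 to 2866177 bp. It was under 100 bp for 12 peaks, 100 bp to 1 kb for 60, 1 to 10 kb for 116, 10 to 100 kb for 141 and more for 81. For 6 the sequence held no RNaseH1 peak. Just inside the rule were peaks at GTF2A1, a subunit of the general factor TFIIA (gap 3 bp, 2.06-fold), and in CUX1, a homeodomain factor (13 bp, 2.84-fold). Next came KIAA1549L (32 bp, 2.72-fold), POU3F1 (38 bp, 2.76-fold) and CCDC92B (59 bp, 3.12-fold). Just outside it were shared peaks near FAM110C (overlap of 8 bp, 3.65-fold), CD163L1 (17 bp, 2.55-fold), SIX2 (17 bp, 2.68-fold), on the chromosome 21 arm (19 bp, 1.42-fold) and near DBET (20 bp, 2.35-fold). Folds thus ran from 2.06 to 3.12 just inside the rule and from 1.42 to 3.65 just outside it.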

How the data were processed

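Flag ChIP-seq peak lists of U2OS cells were analysed, 1 for REXO4-D386A and 1 for RNaseH1-D210N. The submitters' processing notes name MACS2 2.1.0.20150731, HISAT2 2.2.1, Trim Galore 0.6.10, deepTools 3.5.1, SAMtools 1.17 and Cufflinks, with build hg38. The sources used here do not give the control, the threshold, any pooling or the libraries entered, and every peak name contains ChIPseq2. The fold enrichment per peak, a ratio, and its −log10 p and −log10 q are the authors' deposited values and were compared within the REXO4 list only. The peak score was deposited by the authors and not used. How reads in repeats were placed is likewise not given, and this bears on ribosomal and centromeric peaks.

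Members were REXO4 peaks with under 1 bp of overlap with RNaseH1 peaks. For each peak, the fragment number and expected pileup were solved from the deposited fold and p through the Poisson tail and kept where the number was whole (tolerance 0.05 fragments), for 415 of 416 peaks. The exception, at chr1:143213113-143213445, gave 1244.06 fragments and was taken as 1244. The recovery was chosen after values were seen and was tested on simulated peaks. Genes came from a RefSeq table of 59792 genes (GRCh38.p14), 58957 kept and 835 left out for lack of a usable position. Promoter windows and strands came from RefSeq's promoter table. Intervals are exact binomial or exact Poisson at 95%. No test was run, since the lists hold no value per library.

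The members and gene lists were chosen with earlier results of these data known. Named peaks were the 12 of highest fold inside genes, 8 at protein-coding boundaries, up to 4 genes per list, 8 in gene-free stretches, 5 elsewhere outside genes, 5 nearest to the rule's edge on either side, and the 5 deepest and 5 widest. A gene with 3 or more summits would also have been named. A few peaks chosen by this rule are left unreported, and others were named after their values were seen. The alternatives moved the overlap rule, q thresholds, merging, sequences, windows and gene classes. Software was pandas 2.3.3, SciPy 1.17.1, NumPy 2.4.6 and matplotlib 3.10.9 under Python 3.11.15.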

Additional observations from a re-analysis of the deposited data

How the results depend on the processing

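Of 59 values recomputed under alternatives, 47 stayed within the interval of the value reported, or within 1.5 times it for counts, and 12 moved. Some of the 47 could not move. The shares at boundaries and inside genes and the counts of gene-free peaks, of genes and per chromosome already used assembled chromosomes only. The alternative with assembled chromosomes only therefore left them unchanged. The number of peaks without overlap ran from 344 to 535. The share at a gene boundary (29.2%) became 21.03% with a window of 500 bp, 36.9% with 2500 bp, 35.6% with the boundaries of all annotated genes and 35.9% when only the summit had to lie outside RNaseH1 peaks. The share inside a gene (62.8%) became 68.5% with all annotated genes. The number in gene-free stretches (40) became 22 with stretches of over 5 Mb, by construction of the longer limit. The median fold (3.35) became 3.12 with the summit rule, 3.16 with RNaseH1 peaks of q of 1e-05 or less and 3.50 with REXO4 peaks of q of 0.01 or less. The median expected pileup (6.37) became 5.31 with RNaseH1 peaks widened by 1 kb, 7.96 with the summit rule and 7.96 with RNaseH1 peaks of q of 1e-05 or less. Where not stated, the cause was not tested. Stretches of over 2 Mb, and medians without gene-free stretches, ribosomal DNA, scaffolds and mitochondrial DNA (3.39 for fold, 6.37 for expected pileup), were added after seeing the data. No paired analysis was possible because the lists carry no value per library, and leaving out a replicate was not possible for the same reason. Few fragments limit single peaks: at the median of 25, the exact interval of a fold is wide, and the order of most named peaks is not resolved.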
